A study of Mus musculus with 12 samples.

Results

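Undifferentiated mouse embryonic stem cells grown with leukemia inhibitory factor, ES-LIF(+), were compared with the same cells after 48 h without the factor, ES-LIF(-), by hybridizing total RNA to Mouse Genome 430 2.0 arrays. The comparison takes up 6 of the 12 arrays of the series, 3 for each state, chosen by the state that the array titles give. The cells were CGR8, a line derived from the inner cell mass of blastocysts, and both groups were grown without a feeder layer in Glasgow's modified Eagle's medium with 7.5% fetal bovine serum, so that removal of the cytokine is the one difference the labels and methods give between them. The other 6 arrays hold cardiopoietic cells (CP) and cardiomyocytes (CM), 3 arrays each, which were derived from these cells with a cocktail of growth factors and entered the model only for its estimate of the spread. The methods describe the 3 arrays of a state as biological replicates, but everything rests on 1 cell line.

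Leukemia inhibitory factor is a cytokine of the interleukin 6 family. It binds the receptor LIFR, which pairs with the shared signal transducer gp130 (encoded by Il6st), and the JAK kinases bound to these chains phosphorylate the transcription factor STAT3. In mouse embryonic stem cells STAT3 maintains a set of transcription factors of the preimplantation epiblast, called naive pluripotency factors, and SOCS3, which it also induces, feeds back on the receptor. Cells of the epiblast after implantation keep POU5F1 and SOX2 and express a different set of genes, called primed.

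Of 13167 genes tested, 530 were called higher without LIF (4.03% of those tested) and 485 lower (3.68%), a call being a Benjamini-Hochberg adjusted p under 0.05 in limma and a fold above 1.5. Over single probe sets, the groups of probes that each read 1 transcript region, 833 were called higher (3.19%) and 984 lower (3.77%) of 26083. A total of 11480 genes (87.2%) stayed within 1.5-fold, and the median size of the log2 difference over all genes was 0.19. All ES-LIF(-) arrays lay above all ES-LIF(+) arrays in 17.6% of tested genes and below them in 13.7%. These shares stand beside every gene said below to separate. The falls reached further than the rises, with 39 genes called lower past 4-fold against 9 called higher, and the median log2 difference was -0.96 among the genes called lower and 0.85 among those called higher. Signals are given on the linear scale of the deposited values and log2 differences on that of log2(signal + 16), always as ES-LIF(-) minus ES-LIF(+), with standard errors (SE) from the model. The arrays hold whole cultures, in which fewer cells expressing a gene and less RNA per cell cannot be told apart.

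**Figure D1:**
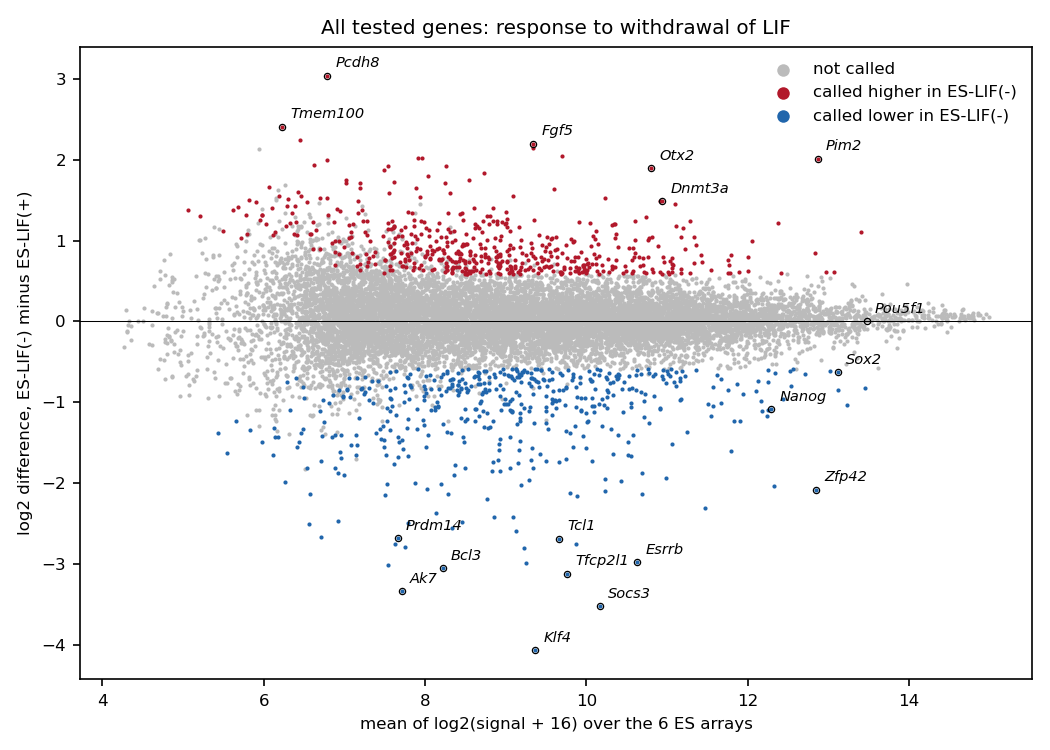
Each point is 1 of the 13167 tested genes, with the mean log2 value over the 6 arrays on the x axis and the log2 difference between the states on the y axis; red points were called higher without LIF, blue points lower, and circled points are named. The falls extend to -4.07 (Klf4) and the rises to 3.04 (Pcdh8), while Pou5f1 lies at the zero line.

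The arrays of both states were alike in overall level and close to each other. The median signal of an array lay between 101 and 111 with LIF and between 104 and 110 without it, and genes below these medians are read near background. The root mean square log2 distance between an array with LIF and one without averaged 0.59 (0.56 to 0.61 over 9 pairs), compared with 0.49 within ES-LIF(+) and 0.47 within ES-LIF(-) (3 pairs each). The 3' to 5' signal ratio of the Actb control probe sets, which rises as RNA is degraded, was 1.32 to 1.75 with LIF and 1.73 to 2.08 without it, and that of Gapdh was 0.81 to 0.92 and 0.90 to 0.94. The ranges overlapped in both, and the part of RNA quality in the results was not tested.

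The cells carried the markers of embryonic stem cells in both states. Each of the 8 markers of this type (Pou5f1, Sox2, Nanog, Utf1, Tdgf1, Sall4, Zfp42 and Fgf4) read above the array median on all 6 arrays, and their summed signal was 70130 to 72090 with LIF and 48850 to 53750 without it. Zfp42, Nanog and Sox2 were called lower and no member was called higher. Markers of other cell types were read on the same arrays. Of 7 fibroblast markers, Dcn and Thy1 were called higher, and their summed signal was 1007 to 1456 with LIF and 1160 to 1670 without it. Of 7 markers of extraembryonic endoderm, Dab2 alone was called, with sums of 645.2 to 836.9 and 1003 to 1318, while Afp never read above 10.2. The sums for 6 trophectoderm markers were 366.9 to 610.3 and 474.8 to 622.1 with Krt7 called higher, and for 5 markers of blood and endothelium 513.3 to 620.7 and 511.4 to 550.0 with none called. Of the mesoderm and streak markers 5 have a probe set, with sums of 777.7 to 861.4 and 1099 to 1741, and Mixl1 and Eomes were called higher. The sums for 5 neural markers were 2907 to 3330 and 2658 to 2957 with Tubb3 called lower, and for 5 cardiomyocyte markers 639.8 to 801.5 and 770.8 to 1087 with Myh6 called higher. In a wider list of 29 cardiac genes, 2 were called higher (6.90%) and 3 lower (10.3%), beside 4.03% and 3.68% of all tested genes. Its extremes were Tnni3 (log2 difference -1.43) and Isl1 (1.32). Both lost their calls with only the 6 ES arrays in the model (adjusted p = 0.06745 and 0.0654). No marker was listed at 0, and the part of other cell types in the results was not tested. Dcn, whose signals of 11.1 to 119 lie near background, lost its call with only the 6 ES arrays in the model (adjusted p = 0.06163). Thy1 lost its call without ES-LIF(+) replicate 2 or ES-LIF(-) replicate 1 (log2 difference 0.61 and 0.54) and with only the 6 ES arrays in the model (adjusted p = 0.05631). Dab2 and Myh6 each had several probe sets of which 1 passed.

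The first question is what withdrawal did to the pathway itself. Of 24 tested genes for the receptor and JAK-STAT components, 5 were called lower (20.8%, beside 3.68% of all tested genes) and none higher. The median log2 difference of the list was -0.02 beside 0.03 over all genes. The receptor Lifr read 1142, 1629 and 2020 on the ES-LIF(+) arrays and 521, 619 and 432 on the ES-LIF(-) arrays. The transducer Il6st read 879, 1082 and 973 with LIF and 450, 521 and 560 without it. Stat3, the transcription factor at the end of the cascade, read 2204, 1983 and 1673 with LIF and 600, 567 and 560 without it. In all 3 genes every array without LIF lay below every array with it, as in 13.7% of all tested genes. Their log2 differences were -1.56 for Lifr (SE 0.20, adjusted p = 0.000128), -0.92 for Il6st (SE 0.12, adjusted p = 0.0001432) and -1.73 for Stat3 (SE 0.11, adjusted p = 1.604e-07), and the 3 probe sets of Stat3 and both of Lifr were all called lower. Jak3 (log2 difference -1.31, SE 0.15), a JAK kinase, and Yes1 (-1.29, SE 0.18), a kinase of the Src family, were also called lower.

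Jak1 and Jak2, kinases that act on gp130, showed no such difference. Jak1 read 916, 1165 and 870 with LIF and 1179, 1054 and 1089 without it, a log2 difference of 0.18 (SE 0.11, adjusted p = 0.3362), and Jak2 differed by -0.01 (SE 0.21). In both genes the groups overlapped. Tyk2 lay lower on every array without LIF (-0.45, SE 0.11, adjusted p = 0.0144), below the fold threshold. Lif itself, the gene of the cytokine, read 187 to 237 with LIF and 127 to 189 without it and was not called. Cntfr, the receptor chain for the related ciliary neurotrophic factor, lay higher on every array without LIF (log2 difference 0.56, SE 0.14, adjusted p = 0.01829) but missed the fold threshold, which it passed without ES-LIF(+) replicate 1 (0.62) or ES-LIF(-) replicate 3 (0.61). Pias3, an inhibitor of STAT3, missed it in the other direction (-0.53, SE 0.14) and passed without ES-LIF(-) replicate 2 (-0.67) and as the mean of its 2 probe sets (-0.78).

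Of 29 tested genes known as targets of LIF and STAT3, 15 were called lower (51.7%), 2 higher (6.90%) and 12 not called. Over all tested genes the shares were 3.68% and 4.03%. The median log2 difference of the list was -0.66. The lists overlap, so their counts are not separate results. Of the targets called lower, Stat3 and Il6st also count among the pathway genes above. Klf4, Klf5, Tfcp2l1, Gbx2, Tbx3 and Nr0b1 count again among the naive genes below. Klf4, a Krüppel-like transcription factor, read 2078, 3151 and 2969 with LIF and 152, 181 and 111 without it. Socs3, the feedback inhibitor of the receptor, read 3565, 4099 and 3966 with LIF and 310, 324 and 333 without it. These were the largest falls of any tested gene, 16.8-fold for Klf4 (log2 difference -4.07, SE 0.17, adjusted p = 3.009e-09) and 11.5-fold for Socs3 (-3.52, SE 0.11, adjusted p = 2.258e-10), and all probe sets of both genes, 2 and 3, were called.

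Other targets fell by less. Tfcp2l1, a transcription factor of the naive state, read 2024, 2689 and 3001 with LIF and 180, 337 and 351 without it, an 8.68-fold fall (log2 difference -3.12, SE 0.21, adjusted p = 2.174e-07). Bcl3, an atypical inhibitor of the IκB family, read 809, 964 and 764 with LIF and 109, 99.7 and 60.3 without it. The ES-LIF(-) arrays of Bcl3 lay below the array medians, so its log2 difference of -3.05 (SE 0.19) depended on the value added before taking logs and was -3.26 with 1 and -2.58 with 64. Icam1, an adhesion molecule, fell 2.79-fold, Tbx3, a T-box factor, 2.52-fold, and Junb, a subunit of AP-1, 2.11-fold. Gbx2, a homeobox gene, fell 3.59-fold, and Ccnd3, a D-type cyclin, fell 1.60-fold, which missed the threshold without ES-LIF(+) replicate 1 (log2 difference -0.54).

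The Pim kinases, serine/threonine kinases that promote survival, moved in opposite directions. Pim3 read 5559, 5469 and 5566 with LIF and 1976, 2435 and 2702 without it (log2 difference -1.23, SE 0.10, adjusted p = 2.214e-06). Pim1 read 2063, 1689 and 2177 with LIF and 1074, 1231 and 1421 without it (-0.66, SE 0.15, adjusted p = 0.008784), and fell just under the fold threshold without ES-LIF(-) replicate 1 (-0.57). Pim2 read 3556, 4098 and 3483 with LIF and 16214, 14594 and 14238 without it. This 4.04-fold rise (2.01, SE 0.08, adjusted p = 1.557e-09) was the most precisely measured of the 15 largest rises. A single tested probe set names Pim2.

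Several targets of the same list did not pass the test. Cish, another member of the SOCS family, read 355, 345 and 362 with LIF and 383, 262 and 358 without it (log2 difference -0.10, SE 0.13). Myc, a transcription factor of growth, read 1947, 1393 and 1657 with LIF and 1748, 1664 and 1649 without it (0.03, SE 0.11). Mcl1, a survival protein of the BCL2 family, differed by -0.05 (SE 0.07). In these 3 genes the groups overlapped. Socs2 lay lower on every array without LIF (-0.38, SE 0.10, adjusted p = 0.02627) and Fos likewise (-0.40, SE 0.13, adjusted p = 0.06921), neither of them called. Cebpb, a bZIP factor, was the second target called higher (0.68, SE 0.19, adjusted p = 0.0298), with overlapping groups, and lost its call without ES-LIF(+) replicate 1 or 3 or ES-LIF(-) replicate 2 or 3 (0.53 to 0.68). With only the 6 ES arrays in the model its adjusted p was 0.05287.

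**Figure D2:**
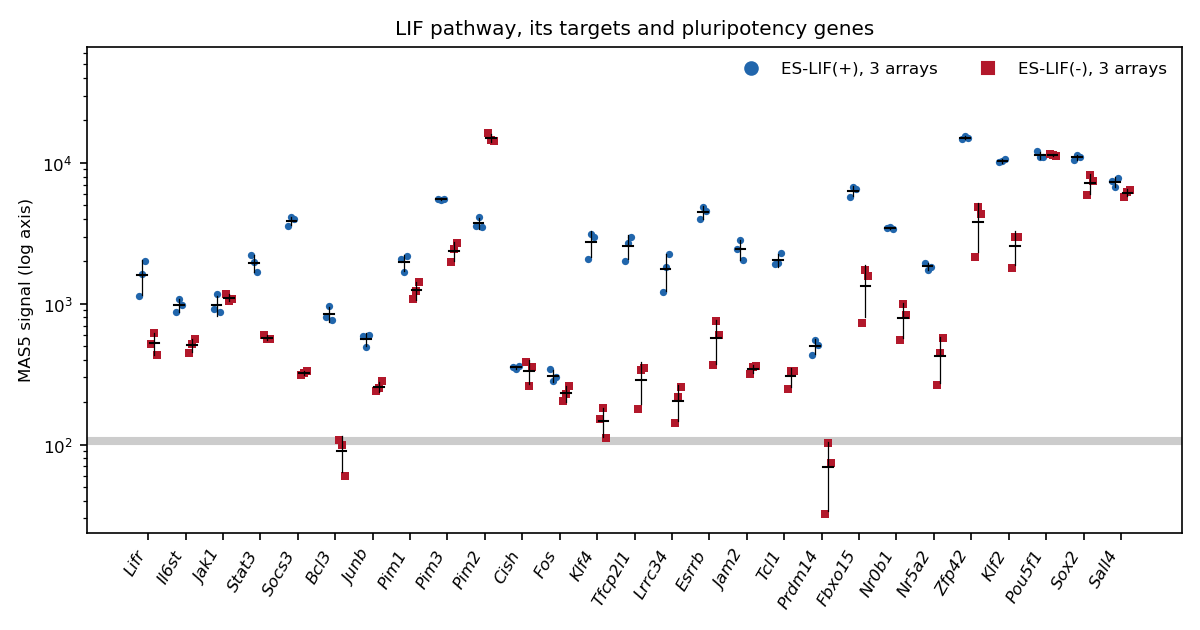
Signals of each array on a log axis for genes of the LIF pathway, its targets and pluripotency genes; blue circles are the 3 ES-LIF(+) arrays, red squares the 3 ES-LIF(-) arrays, black bars the means with 1 SD, and the grey band the range of the array medians. Stat3, Socs3 and Klf4 separate fully, Pim2 moves the other way, and Pou5f1 and Jak1 overlap.

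The promoters of the target list were searched for TTCNNNGAA, the inverted repeat that STAT dimers bind, in windows from 250 bases before to 50 bases after each annotated start (RefSeq, GRCm38.p6). It reads the same on both strands. Among the 13 targets called lower that have a window, 2 held it, Socs3 and Icam1, as did 3 of the 9 that were not called, among them Cish, and neither of the 2 called higher. The windows of Socs3 and Icam1 are shown because both genes fell, and that of Cish because it holds the motif at 2 places and Cish did not pass the test. Capitals mark the motif. They lie at chr11:117969317-117969616 on the minus strand, chr9:21015690-21015989 on the plus strand and chr9:107296409-107296708 on the plus strand.
Socs3: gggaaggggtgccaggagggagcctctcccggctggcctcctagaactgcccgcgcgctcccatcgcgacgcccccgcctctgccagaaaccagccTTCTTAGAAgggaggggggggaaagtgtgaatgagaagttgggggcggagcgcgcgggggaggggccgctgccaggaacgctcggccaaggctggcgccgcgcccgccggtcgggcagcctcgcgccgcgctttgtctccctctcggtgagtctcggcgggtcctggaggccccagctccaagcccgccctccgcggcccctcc
Icam1: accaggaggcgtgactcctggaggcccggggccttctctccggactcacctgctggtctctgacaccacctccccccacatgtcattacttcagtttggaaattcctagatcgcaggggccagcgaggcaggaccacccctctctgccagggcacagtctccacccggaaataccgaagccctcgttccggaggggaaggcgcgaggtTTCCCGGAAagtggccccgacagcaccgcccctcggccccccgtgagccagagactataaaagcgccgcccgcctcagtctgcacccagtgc
Cish: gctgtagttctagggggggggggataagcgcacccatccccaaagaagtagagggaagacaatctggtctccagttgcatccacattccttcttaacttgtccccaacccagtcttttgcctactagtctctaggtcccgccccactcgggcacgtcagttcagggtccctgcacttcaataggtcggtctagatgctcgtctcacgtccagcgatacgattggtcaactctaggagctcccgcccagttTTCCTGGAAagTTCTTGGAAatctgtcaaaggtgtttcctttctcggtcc
The motif begins 154 bases before the start of Socs3 and 42 bases before that of Icam1, and in Cish it begins at the first transcribed base and again 11 bases on.

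Over all called genes the same motif was counted and set beside all tested genes and all windows, without a test. It stood in 8.58% of 513 windows of genes called lower and in 6.16% of 552 windows of genes called higher, beside 6.65% of 13517 windows of all tested genes and 8.30% of all 32851 windows in the table. CACGTG, the E-box that MYC binds, was in 9.16% of windows of genes called lower, 7.43% of those called higher, 9.65% of those tested and 7.15% of all windows. The octamer ATTTGCAT of POU factors was in 1.75%, 1.63%, 1.31% and 1.74% in the same order, and TGANTCA, the AP-1 site, in 7.60%, 5.07%, 5.35% and 7.81%. CTTTGA, read by TCF and LEF factors, was in 12.5%, 10.5% and 12.01% and in 5257 of all 32851 windows, and GGGCGTGG, read by Krüppel-like factors, in 7.99%, 7.61%, 9.16% and 5.33%. These motifs were searched on both strands and do not contain one another. The shares are descriptions, several windows can belong to 1 gene, and more distant sites were not searched.

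Of 29 tested naive pluripotency genes, 23 were called lower (79.3%, beside 3.68% of all tested genes) and none higher. All 29 log2 differences were below 0, and the median was -1.85. Esrrb, an orphan nuclear receptor, read 3977, 4864 and 4526 with LIF and 365, 758 and 596 without it, a 7.89-fold fall (log2 difference -2.98, SE 0.19, adjusted p = 1.851e-07) seen in all 3 of its probe sets. Zfp42, the zinc finger protein REX1 that marks the naive state, read 14759, 15455 and 15087 with LIF and 2130, 4846 and 4366 without it (-2.08, SE 0.22, adjusted p = 1.944e-05). Nanog, a homeobox factor, read 6904, 7133 and 7745 with LIF and 3446, 3420 and 3388 without it (-1.08, SE 0.11, adjusted p = 2.147e-05). No array without LIF reached the level of an array with it in any of the 3 genes, as in 13.7% of all tested genes.

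Krüppel-like factors, which share targets with ESRRB and NANOG, fell in part of the family. Klf2 read 10059, 10336 and 10691 with LIF and 1786, 2984 and 2988 without it (log2 difference -2.03, SE 0.15, adjusted p = 8.592e-07), and Klf5 read 5977, 6520 and 6055 with LIF and 1811, 2045 and 2247 without it (-1.60, SE 0.09, adjusted p = 3.669e-08). Klf3 fell 2.27-fold in 5 of its 6 probe sets. With Klf4, these were the 4 of 16 tested members of the family called lower (25.0%, beside 3.68% of all tested genes). Klf7 was called higher (log2 difference 0.81), which is 6.25% of the members beside 4.03% of all tested genes. Klf5 was called in 1 of its 2 probe sets.

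Further naive genes covered several functions. Among regulators of transcription and chromatin, Prdm14 fell 6.43-fold to a level below the array medians, Nr5a2, a nuclear receptor, 4.36-fold, Nr0b1, an orphan receptor known as DAX1, 4.40-fold, and Zfp57, which protects imprints, 2.52-fold. Tet2, a methylcytosine dioxygenase, read 861, 913 and 778 with LIF and 189, 243 and 244 without it (log2 difference -1.85, SE 0.19). Tcl1, a coactivator of AKT, fell 6.45-fold, Fbxo15, an F-box protein, 4.95-fold, and Dppa3, a maternal factor known as STELLA, 2.13-fold. Among surface proteins Jam2, a junctional adhesion molecule, fell 6.75-fold in all 5 of its probe sets and Pecam1 2.86-fold. Lrrc34 fell 7.93-fold, Manba, a lysosomal mannosidase, 3.93-fold, Triml1 3.73-fold and Mras, a small GTPase, 3.21-fold. In each of these genes all arrays without LIF lay below all arrays with it, as did 13.7% of all tested genes.

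The 6 members not called were Alpl, Crxos, Dppa2, Dppa5a, L1td1 and Fgf4. Dppa5a read 25244, 23602 and 22194 with LIF and 21782, 22119 and 20857 without it (log2 difference -0.13, SE 0.13), and Alpl, the alkaline phosphatase used to stain undifferentiated colonies, differed by -0.39 (SE 0.14, adjusted p = 0.1016). In Alpl, Dppa2 and Dppa5a every array without LIF lay below every array with it, while Crxos, L1td1 and Fgf4 overlapped between the states.

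The lowest signals were not spread evenly over the arrays without LIF. ES-LIF(-) replicate 1 gave the lowest of the 3 signals in 17 of the 23 naive genes called lower, replicate 2 in 1 and replicate 3 in 5. Among the 15 LIF and STAT3 targets called lower these counts were 8, 1 and 6. Among the 19 primed epiblast genes called higher, the highest signal lay on replicate 1 in 11, replicate 2 in 5 and replicate 3 in 3. Genes of a list can vary together, and a difference in depth between the arrays was not tested. The 23 calls held their number when any of the 12 arrays was left out.

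Pou5f1, which encodes OCT4, read 12088, 10926 and 11080 with LIF and 11577, 11323 and 11185 without it, a log2 difference of 0.00 (SE 0.10, adjusted p = 0.9969). Of 18 tested core genes 2 were called lower (11.1%) and 1 higher (5.56%), beside 3.68% and 4.03% of all tested genes. The list median was -0.07. Sox2, the partner of OCT4, read 10498, 11408 and 11057 with LIF and 5930, 8177 and 7453 without it (-0.62, SE 0.10, adjusted p = 0.001083), and missed the fold threshold without ES-LIF(-) replicate 1 (-0.49). Mybl2, a MYB factor of the cell cycle, fell 2.35-fold from 5635 to 6097 with LIF to 1845 to 2951 without it. Foxd3, a forkhead factor, read 665 to 786 with LIF and 1056 to 1317 without it (0.68, SE 0.16, adjusted p = 0.009839), and without ES-LIF(-) replicate 2 its adjusted p was 0.05284. Lin28a, an RNA-binding protein, lay higher on every array without LIF (0.36, SE 0.07, adjusted p = 0.002541) and Sall4, a zinc finger factor, lower (-0.26, SE 0.08, adjusted p = 0.04511), both within 1.5-fold. Tdgf1, Utf1, Dppa4, Gdf3 and Trim28 were not called. Rest, a repressor of neuronal genes, missed the fold threshold by its brightest probe set (-0.57, SE 0.11, adjusted p = 0.004073) and passed it without replicate 3 of ES-LIF(+) (-0.71) or of ES-LIF(-) (-0.64) and as the mean of its 4 probe sets (-0.94).

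Of 29 tested primed epiblast genes, 19 were called higher (65.5%, beside 4.03% of all tested genes) and none lower. Above 0 lay 26 log2 differences, and the median was 0.90. Fgf5, a fibroblast growth factor of the postimplantation epiblast, read 218, 267 and 404 with LIF and 1401, 1291 and 1440 without it (log2 difference 2.20, SE 0.17, adjusted p = 1.328e-06). Otx2, a homeobox factor of the epiblast and anterior brain, read 934, 905 and 888 with LIF and 3007, 3446 and 3894 without it (1.90, SE 0.11, adjusted p = 7.812e-08). Pou3f1, the POU factor OCT6, read 1251, 1223 and 1479 with LIF and 3584, 3885 and 3420 without it (1.45, SE 0.11, adjusted p = 1.176e-06). The groups did not overlap in any of the 3, as in 17.6% of all tested genes in this direction.

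The 2 de novo DNA methyltransferases rose with them. Dnmt3b read 7832, 7714 and 6583 with LIF and 16186, 15890 and 15335 without it (log2 difference 1.10, SE 0.07, adjusted p = 2.015e-07). Dnmt3a read 1639, 1118 and 843 with LIF and 3987, 3155 and 2792 without it (1.49, SE 0.20, adjusted p = 0.0001569), and 4 of its 5 probe sets were called higher. Tet2, whose product oxidizes methylcytosine, fell, as given above. Of 15 tested DNA methylation genes 2 were called higher (13.3%) and 4 lower (26.7%), beside 4.03% and 3.68% of all tested genes. Those called lower were Tet2, Zfp57, Tet1 and Gadd45b. Tet1, another methylcytosine dioxygenase, read 4081 to 5260 with LIF and 1806 to 2636 without it. Gadd45b is a stress-induced gene linked to demethylation (-1.11, SE 0.20). Dnmt3l, the cofactor of the de novo enzymes, read 3192 to 4659 with LIF and 2486 to 3770 without it and was not called.

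Other members of the primed list included transcription factors and signalling genes. Sall2, a zinc finger factor, rose 4.13-fold (from 322 to 445 up to 1527 to 1788), Zic2 2.30-fold, Zic5 1.86-fold, Sox11 1.63-fold and Lef1, a partner of β-catenin, 2.41-fold. Sox3 rose 2.88-fold by its brighter probe set, the mean of its 2 probe sets giving a log2 difference of 0.64 that was not called. Fst, the activin antagonist follistatin, rose 3.11-fold, Fgf15 from 181 to 215 up to 410 to 644 (log2 difference 1.32), Sfrp2, a secreted WNT antagonist, 2.04-fold, Car14, a carbonic anhydrase, 2.64-fold, and Cldn6, a claudin, 2.44-fold. The weakest calls were Hes6 (0.60), Grhl2 (0.74) and Sema6a (0.81). Grhl2 lost its call when any of the 6 ES arrays was left out (adjusted p 0.06453 to 0.1447), Sema6a without any of them other than ES-LIF(+) replicate 2 (0.05076 to 0.1189), and Hes6 without ES-LIF(+) replicate 2 or 3 or ES-LIF(-) replicate 1 (log2 difference 0.50 to 0.54). Over all leave-outs, 16 to 20 members of the list were called.

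The 10 members not called were Krt8, Krt18, Krt19, Tcf15, Enpp3, Cdh2, Nodal, Sox4, Tead2 and Wnt8a. Cdh2, the mesenchymal cadherin, lay higher on every array without LIF (log2 difference 0.31, SE 0.08, adjusted p = 0.02184), as did Sox4 (0.35, SE 0.07, adjusted p = 0.003293) and Tead2 (0.52, SE 0.11, adjusted p = 0.00549), all below the fold threshold, which Tead2 passed without ES-LIF(+) replicate 1 (0.60). Krt18 read 1897 to 3507 with LIF and 2962 to 3937 without it and passed without ES-LIF(+) replicate 3 alone (0.68). Wnt8a read 117, 131 and 113 with LIF and 230, 179 and 253 without it, near the array medians, and its adjusted p was 0.05149.

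**Figure D3:**
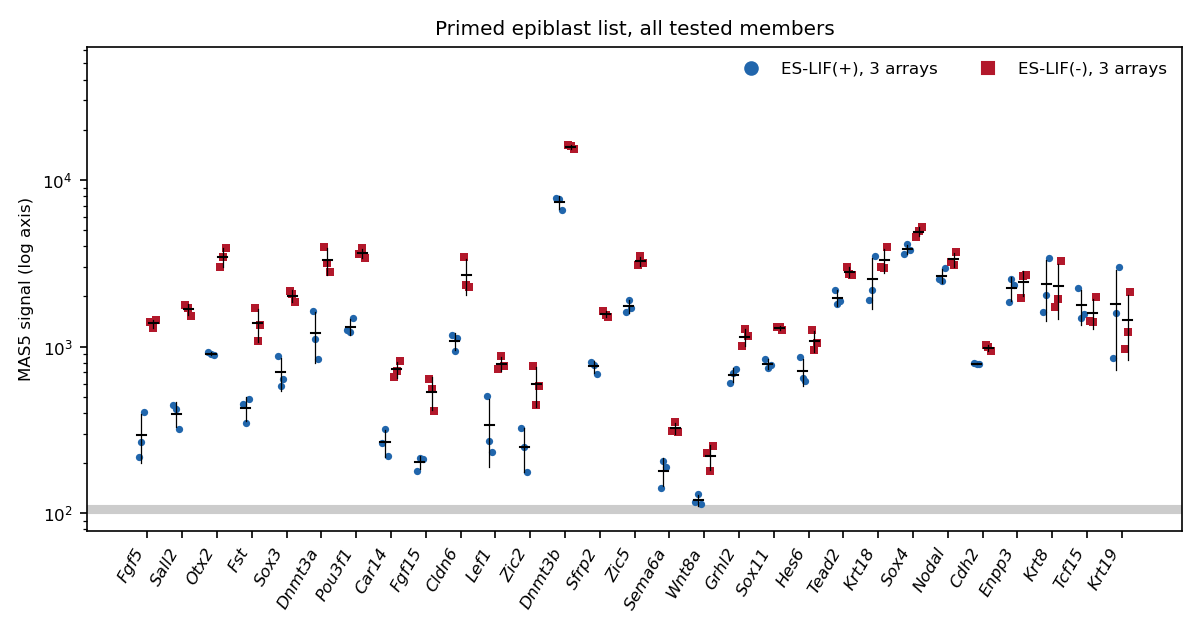
Signals of each array on a log axis for all 29 tested members of the primed epiblast list, ordered by log2 difference from Fgf5 (2.20) to Krt19 (-0.22); blue circles are ES-LIF(+), red squares ES-LIF(-), black bars the means with 1 SD over 3 arrays, and the grey band the range of the array medians. The states separate in all genes other than Krt18 and the last 4 (Enpp3, Krt8, Tcf15 and Krt19), where they overlap.

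The 15 largest rises held 4 genes named above (Fgf5, Sall2, Pim2 and Otx2). Pcdh8, a protocadherin of the early mesoderm, read 91.7, 4.3 and 10.0 with LIF and 353, 257 and 298 without it. The ES-LIF(+) arrays lay below the array medians, so the fitted log2 difference of 3.04 (SE 0.45, adjusted p = 0.0004461) was 4.10 with 1 added before logs and 1.98 with 64. Both probe sets of Pcdh8 were called higher.

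Car4, a membrane-bound carbonic anhydrase, rose 4.43-fold (from 196 to 356 up to 1238 to 1521), Cxcl12, a chemokine, 4.07-fold (from 103 to 112 up to 415 to 627), Tmem54 3.78-fold (from 119 to 181 up to 502 to 731) and Cthrc1, a secreted collagen repeat protein, 3.57-fold (from 157 to 267 up to 700 to 911). Mrc2, an endocytic collagen receptor, rose 3.68-fold and Irs4, a docking protein of insulin signalling, 3.79-fold, each by 1 of 2 probe sets, and their mean over both was 1.07 and 0.95 on the log2 scale. Tmem100, Gabra3, a GABA receptor subunit, Fam184b and Cacng8, an auxiliary channel subunit, started from signals of 107 or less with LIF and read 141 to 242 without it. Tmem100 and Gabra3 are also named by a brighter probe set that failed the filter on dim signals, whose log2 differences were 0.40 and -0.12, so their calls rest on the dimmer of their probe sets.

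Beyond genes of the LIF target and naive lists, the 15 largest falls held Ak7, Mymx, Ntn1, Tfeb, Inhbb and Gjb5. Ak7, an adenylate kinase, read 723, 595 and 634 with LIF and 44.8, 31.6 and 82.3 without it (log2 difference -3.34, SE 0.24, adjusted p = 4.92e-07). Ntn1, the guidance cue netrin 1, read 1156, 1758 and 1909 with LIF and 168, 228 and 246 without it (-2.80, SE 0.18, adjusted p = 1.671e-07). Tfeb, a regulator of lysosomal genes, read 523, 532 and 600 with LIF and 36.5, 88.2 and 83.4 without it (-2.80, SE 0.23, adjusted p = 1.998e-06). All 3 separated fully, as the choice of the largest falls required, and without LIF Ak7 and Tfeb read below the array medians. Mymx, a micropeptide known from myoblast fusion, fell from 372 to 689 with LIF to 27.0 to 81.3 without it, and Gjb5, a connexin, from 197 to 358 to 5.9 to 76.8, where its log2 difference of -2.67 ranged from -3.49 to -1.74 with 1 and 64 added.

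Of 22 tested Nodal and activin genes 2 were called higher and 2 lower (9.09% each), beside 4.03% and 3.68% of all tested genes. Inhbb, the activin βB subunit, read 417, 484 and 609 with LIF and 69.9, 75.6 and 39.7 without it (log2 difference -2.76, SE 0.21, adjusted p = 1.014e-06), Skil, a SMAD corepressor, rose 1.73-fold, and Lefty2, a Nodal antagonist, fell 1.56-fold and missed the threshold without ES-LIF(-) replicate 3 (-0.57). Of 26 FGF and ERK genes 5 were called higher (19.2%) and 2 lower (7.69%). Fgf17 fell 3.01-fold, from 954 to 1012 with LIF to 278 to 356 without it, and Fgf8, a ligand of the primitive streak, rose 2.11-fold, from 133 to 197 up to 295 to 428. Fgf5, given above, was the largest rise of the list (2.20). Further members called, named after their values were seen, included the ERK feedback genes Spry4 (-0.83, lower), Spry1 (0.69) and Dusp6 (0.64).

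Of 28 WNT genes 5 were called higher (17.9%) and 3 lower (10.7%), beside 4.03% and 3.68% of all tested genes. Notum, an extracellular WNT inhibitor, read 1253, 1221 and 1415 with LIF and 276, 453 and 441 without it (log2 difference -1.72, SE 0.16, adjusted p = 5.457e-06), and the receptor Fzd5 fell 2.37-fold. Beside Lef1 and Sfrp2, the remaining calls, also named after their values were seen, were the antagonist Sfrp1 (-0.76), the receptors Fzd7 (0.75) and Fzd2 (0.61) and the feedback gene Axin2 (0.68). Of 23 BMP genes 2 were called higher and 3 lower. Bmp4, the ligand, read 1143, 707 and 761 with LIF and 244, 312 and 380 without it (-1.42, SE 0.17, adjusted p = 7.162e-05), Id4, an inhibitor of bHLH factors, fell 1.86-fold in all 3 probe sets, and Acvr1, a type I receptor, rose 1.67-fold by 1 of 3 probe sets, whose mean was 0.19. Msx1, a homeobox gene, rose 1.98-fold, with an adjusted p of 0.05037 without ES-LIF(+) replicate 1. Smad6, an inhibitory SMAD, was the third member called lower (-0.62).

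Of 15 primitive streak and mesoderm genes 3 were called higher and none lower. Eomes, a T-box factor of the streak and trophoblast, read 251, 182 and 390 with LIF and 724, 505 and 821 without it (log2 difference 1.30, SE 0.21, adjusted p = 0.0009847). Mixl1, a homeobox gene of the streak, read 213, 198 and 205 with LIF and 400, 238 and 481 without it (0.76, SE 0.20), and lost its call without ES-LIF(+) replicate 2 or ES-LIF(-) replicate 1 or 3 (0.55 to 0.73). Mixl1 also lost it with only the 6 ES arrays in the model (adjusted p = 0.08195). The extraembryonic endoderm factors Gata4, Gata6 and Sox17 read 76.4 to 155.5, 108 to 177 and 62.5 to 122 over the 6 arrays and were not called. In that list of 18 genes, Lama1, a laminin chain, fell from 458 to 553 with LIF to 55.2 to 107 without it (adjusted p = 2.051e-06), where its log2 difference was -2.72 with 1 added before logs and -2.02 with 64. Tubb3 (-0.98, SE 0.12) and Ncam1 (-0.85, SE 0.22) of the 16 neural genes were called lower (12.5%) and Sox3 higher (6.25%). Ncam1 lost its call without ES-LIF(+) replicate 2 (adjusted p = 0.0734) or ES-LIF(-) replicate 1 (0.07762) and with only the 6 ES arrays in the model (0.09746). Tfap2c, an AP-2 factor of trophoblast and germ cells, fell from 634 to 933 with LIF to 104 to 178 without it (-2.48, SE 0.20, adjusted p = 1.364e-06) in all 3 probe sets, beside Eomes, Krt7 (1.08, SE 0.26) and Phlda2 (-0.60, SE 0.19) among the 14 trophectoderm genes. In that list 2 genes were called in each direction (14.3%). Krt7, read at 25.6 to 132, lost its call with only the 6 ES arrays in the model (adjusted p = 0.0843). Phlda2 lost its call when any ES array was left out (adjusted p 0.05677 to 0.1523).

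Of 21 germline genes 7 were called lower (33.3%) and 2 higher (9.52%), beside 3.68% and 4.03% of all tested genes. After Prdm14, the largest falls were those of Prdm1, the repressor BLIMP1 (log2 difference -1.13, SE 0.17), Kit, the receptor of stem cell factor (-1.13, SE 0.15) and Dppa3, which was given above. In each of these 4 genes the states did not overlap, as in 13.7% of all tested genes in this direction. The 2 called higher were Mael (0.95), of the piRNA pathway, and the helicase Ddx4 (0.65).

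Of 27 extracellular matrix genes 4 were called lower (14.8%, beside 3.68% of all tested genes) and none higher. The 4 were Lama1, Nid1, Col6a1 and Lamc1. Nid1, the basement membrane linker nidogen, read 1532, 1340 and 1746 with LIF and 426, 458 and 503 without it (log2 difference -1.70, SE 0.10, adjusted p = 6.008e-08), and Lamc1, a laminin chain, 2488, 2540 and 2519 against 1234, 1309 and 1417 (-0.92, SE 0.10, adjusted p = 3.561e-05). Col6a1, read near or below the array medians, lost its call without ES-LIF(-) replicate 1 (adjusted p = 0.05612) or 2 (0.05914) and with only the 6 ES arrays in the model (0.1091). Of 29 epithelial junction and EMT genes 7 were called higher (24.1%) and 1 lower (3.45%), beside 4.03% and 3.68% of all tested genes. Zeb1, a repressor of epithelial genes, fell 2.57-fold by 1 of 2 probe sets, while Esrp1, an epithelial splicing factor, rose 2.30-fold and the claudins Cldn6 and Cldn7 rose 2.44-fold and 2.02-fold.

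Genes of mitosis, DNA replication and ribosome biogenesis showed almost no call. None of 29 mitotic genes or of 41 DNA replication genes was called by limma. Over all tested genes 4.03% were called higher and 3.68% lower, shares at which lists of this size hold few calls. Below 0 lay 19 of the mitotic and 32 of the replication genes, with medians of -0.05 and -0.08 beside 0.03 over all genes. This shift was not tested. One of 39 ribosome biogenesis genes was called, Rrp9 (log2 difference -0.63, SE 0.08), a protein of the small nucleolar ribonucleoproteins. Of 27 G1 cyclins and inhibitors, Ccnd3 was called lower and E2f7, a repressive E2F, higher (0.60, SE 0.10), which missed the fold threshold without ES-LIF(+) replicate 2 or ES-LIF(-) replicate 1 (both 0.58). At an unadjusted p under 0.05, 2 of the mitotic and 8 of the replication genes differed. The one-way analysis of variance over the 4 stages called 0 of either, but its calls also required the fold threshold between ES-LIF(-) and ES-LIF(+). No gene of these lists reached that threshold, with log2 differences of -0.29 to 0.31 (mitotic) and -0.44 to 0.36 (replication). The count of 0 was therefore fixed beforehand and cannot show whether these genes differ over the 4 stages. Of 13 genes of the MYC network, Mycl rose (1.16, SE 0.27) by 1 of 3 probe sets and Mlx (-0.69, SE 0.13) and Mybl2 fell. Mlx lost its call as the mean of its 2 probe sets (-0.53) and by its brightest probe set over the 6 ES arrays (-0.36, adjusted p = 0.1191).

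**Figure D4:**
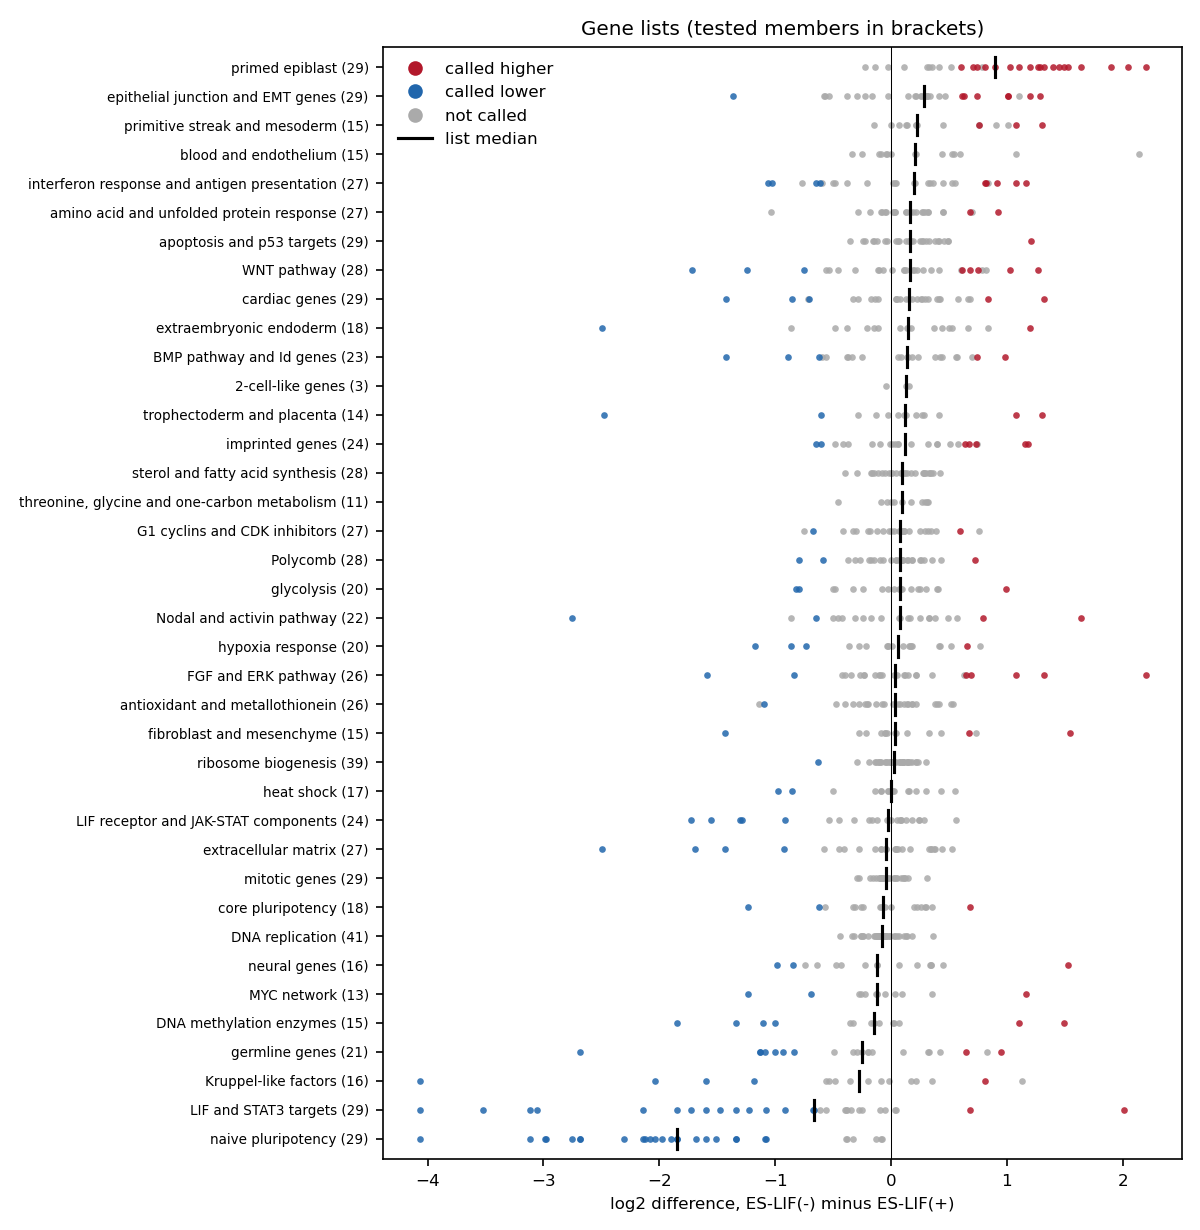
Each point is a tested gene placed by its log2 difference between the states, in a row for each of 38 gene lists with the number of tested members in brackets; red points were called higher without LIF, blue points lower, grey points not called, and black ticks are list medians. The medians run from -1.85 (naive pluripotency) to 0.90 (primed epiblast), and most lists centre near 0.

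Along the genome, the X chromosome stood somewhat apart. The median log2 difference of its 433 tested genes was 0.10, and 34 were called higher and 12 lower (7.85% and 2.77%). Medians of the other chromosomes lay between 0.01 (chromosome 11) and 0.05 (chromosome 12). Against the ES-LIF(+) mean, the median over X genes was 0.11, 0.10 and 0.14 on the 3 ES-LIF(-) arrays and -0.025, -0.0020 and 0.037 on the ES-LIF(+) arrays, so the states did not overlap. After centring each array on its median the values were 0.07, 0.12 and 0.12 without LIF and -0.03, -0.06 and 0.10 with it, which overlapped. The 0.10 was that of ES-LIF(+) replicate 3, which then lay at 0.05236 (chromosome 15) to 0.09164 (chromosome 13) on the others. After quantile normalization the X values were 0.1023, 0.1055 and 0.1336 without LIF and -0.02472, -0.01465 and 0.04757 with it, which did not overlap. Pim2 and Nr0b1 lie on X.

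**Figure D5:**
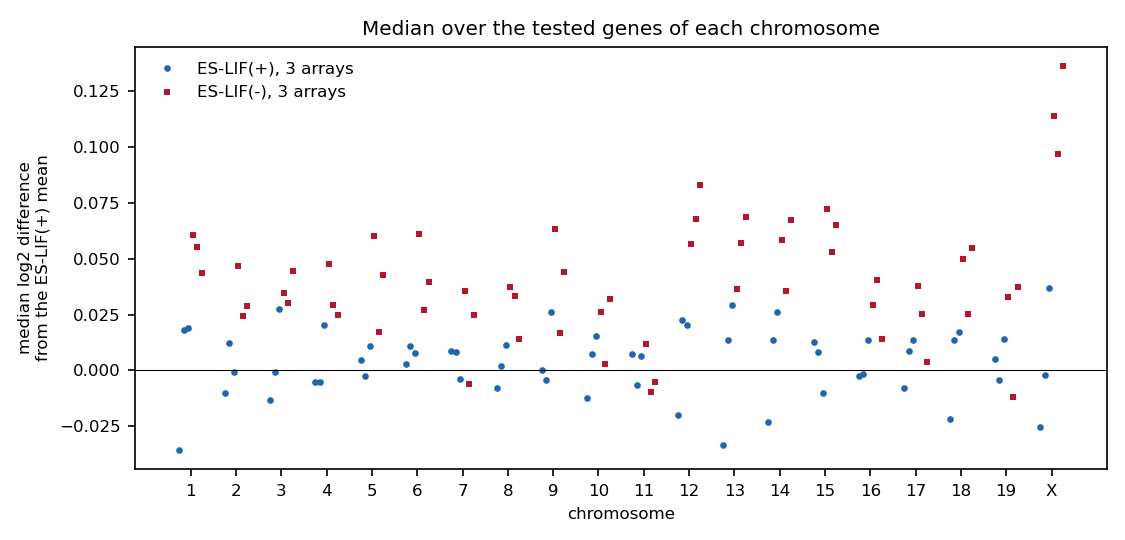
Median over the tested genes of each chromosome of the log2 difference from the ES-LIF(+) mean, 1 point per array, blue circles for ES-LIF(+) and red squares for ES-LIF(-). The 3 ES-LIF(-) arrays lie at 0.10 to 0.14 on X and at or below 0.08 on the other chromosomes.

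The later stages share the ES-LIF(+) cells as their origin, and their levels are set beside those above without a comparison. The mean signal of Klf4 was 2733 with LIF, 148 without it, 1760 in CP and 932 in CM (SD 574, 35.4, 78.1 and 144), and that of Stat3 was 1953, 575, 3092 and 4136. The mean signal of Nanog was 7260, 3418, 6268 and 1568 in the same order. Those of Fgf5 were 297, 1377, 734 and 334 and those of Otx2 909, 3449, 920 and 538.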

How the data were processed

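Biotin-labelled cRNA from 10 ug of total RNA was hybridized to Mouse Genome 430 2.0 arrays. The authors deposited 1 signal intensity per probe set, computed and scaled per array in MAS 5.0, on a linear scale. No detection calls were used here. Of 45101 probe sets, 64 controls were set aside. Of the 45037 kept, 34945 name 1 gene, 932 name several and 9160 none, per the platform annotation.

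Here log2(signal + 16) was fitted with limma 3.58.1 in R 4.3.3 (lmFit, eBayes with an intensity trend) over all 12 arrays with the 4 stages as groups. The 26083 probe sets above the array median on at least 3 of 12 arrays were tested, and p-values were adjusted over all of them by Benjamini and Hochberg. A gene stands by its brightest tested probe set that names it alone. The addition of 16 understates changes of dim genes. The steps were tested on simulated data with known changes.

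The 38 gene lists hold 980 entries, of which 61 have no probe set of their own. A gene can stand in several lists. The lists and the comparison were chosen with earlier results of these data known. Named are the 15 largest non-overlapping rises and falls, members of the LIF, STAT3, naive, core and primed lists, up to 4 called members of each other list, the cell type markers, and a few genes said to be chosen after their values were seen. Medians and counts describe the lists, with no test. Alternatives covered scaling, the added constant, the filter, the arrays in the fit, the intensity trend, the methods' analysis of variance, the fold threshold, the choice of probe set, the replicate number as a block, and each array left out in turn. Promoters came from RefSeq (GRCm38.p6). The number of arrays limits the precision.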

Additional observations from a re-analysis of the deposited data

How the results depend on the processing

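Of 138 named genes that were called, 103 kept the call under every alternative other than the 2 changes of the fold threshold and the analysis of variance, for which single genes were not followed, 34 lost it under at least 1 and 1 changed direction. That gene was Gabra3, whose log2 difference without a filter on dim probe sets was -0.12, since another probe set then stood for it. Of 62 named genes that were not called, 6 were called under at least 1 of the same alternatives. Without a fold threshold 1578 probe sets and 1049 genes were called higher and 1579 and 834 lower, and with a fold above 2 the counts were 288 and 184 higher and 437 and 228 lower. The distance between arrays with and without LIF was 0.7051 with 1 added before logs and 0.4474 with 64, compared with 0.587. Leaving out each array gave 631 to 827 probe sets and 410 to 521 genes higher and 789 to 1122 probe sets and 438 to 483 genes lower. The LIF and STAT3 targets called lower numbered 14 to 15, the naive genes called lower 23 each time, and the primed genes called higher 16 to 20. Most counts of the other lists were small and less stable. Of 76 list counts, higher and lower in each list, 18 stayed within 1.5 times the main count under every alternative. The changes of the fold threshold were among these alternatives, the analysis of variance was not. The methods' analysis of variance, which tests any difference over the 4 stages, gave 1215 probe sets and 721 genes higher and 1392 and 608 lower. Its calls also required the fold threshold between ES-LIF(-) and ES-LIF(+). Taking each gene's brightest probe set over the 6 ES arrays, an alternative chosen after seeing the data, gave 521 genes higher and 479 lower.

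The replicate numbers were not taken to pair the arrays, since the methods name no pairing. Deviations of same-numbered arrays correlated at 0.0954, 0.0386 and 0.026. Those of the other pairs ranged from -0.0902 up, and only ES-LIF(+) replicate 3 with ES-LIF(-) replicate 2 lay above 0 (0.0529). The labels do not say whether same-numbered arrays were processed together. With the replicate block, 708 probe sets were called higher and 833 lower, and 460 genes higher and 454 lower. Signals below the array medians of about 101 to 111 lie near background, where differences depend on the constant added before logs.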

Other observations

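Genes of energy metabolism and stress held few calls, at shares that differed between lists. Over all tested genes 4.03% were called higher and 3.68% lower. Of 20 glycolysis genes 1 was called higher (5.0%) and 2 lower (10.0%). Slc16a3, a lactate exporter, read 3114, 2502 and 3497 with LIF and 7834, 5720 and 4807 without it (log2 difference 0.99, SE 0.17, adjusted p = 0.001529), while Pfkp, a phosphofructokinase, fell 1.76-fold (-0.82, SE 0.09). Of 20 hypoxia genes 1 was called higher and 3 lower, the largest change being that of Kdm3a, a histone demethylase, which read 4360, 4765 and 4325 with LIF and 1696, 2281 and 1988 without it (-1.18, SE 0.10, adjusted p = 2.217e-06). Sod2, the mitochondrial superoxide dismutase, fell 2.14-fold in 3 of 4 probe sets and was the 1 call among 26 antioxidant genes (3.85%). The small heat shock proteins Hspb1 (-0.85, SE 0.08) and Hspb8 (-0.98, SE 0.13) were the 2 calls among 17 heat shock genes (11.8%), both lower. Pmaip1, the BH3-only protein NOXA, read 345, 323 and 288 with LIF and 744, 721 and 801 without it (1.21, SE 0.13, adjusted p = 3.143e-05). It was the 1 call among 29 apoptosis genes (3.45%).

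Interferon and antigen presentation genes were called in both directions, 5 of 27 higher (18.5%) and 4 lower (14.8%). Over all tested genes the shares were 4.03% and 3.68%. Tap1, a peptide transporter, rose 2.24-fold and Bst2, the restriction factor tetherin, 2.12-fold, while Irf9, an interferon regulatory factor, fell from 366 to 428 with LIF to 171 to 192 without it (log2 difference -1.06, SE 0.16, adjusted p = 0.000488) and Ifitm1 fell 2.04-fold. The other calls, named after their values were seen, were Psmb8 (0.92), H2-K1 (0.82) and H2-D1 (0.81), higher, and Ifitm2 (-0.65) and Ifi27 (-0.61), lower, and the near-identical sequences of H2-K1 and H2-D1 leave their separate signals uncertain. Of 24 imprinted genes 5 were called higher (20.8%) and 2 lower (8.33%). Magel2 (1.16, SE 0.21) and Grb10 (1.19, SE 0.16) were the largest, Grb10 by 1 of 3 probe sets, its mean over them being 0.18. Nnat (0.73), Ndn (0.68) and Mirg (0.64) were the others called higher, and Peg10 (-0.65) and Phlda2 (-0.60) those called lower. Nnat lost its call without ES-LIF(+) replicate 2 or 3 or ES-LIF(-) replicate 1 (adjusted p 0.0662 to 0.07641) and with only the 6 ES arrays in the model (0.06424). Ndn missed the fold threshold without ES-LIF(-) replicate 1 (0.52). Of 28 Polycomb genes 1 was called higher (3.57%) and 2 lower (7.14%). Eed, a core subunit of PRC2, fell 1.73-fold from 7592 to 8074 with LIF to 4237 to 4612 without it (-0.79, SE 0.07, adjusted p = 5.25e-06). Mtf2 fell (-0.59, SE 0.08) and Yaf2 rose (0.73, SE 0.12). Mtf2 missed the fold threshold without ES-LIF(+) replicate 2 (-0.54) or ES-LIF(-) replicate 1 (-0.53).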
